A study of Homo sapiens with 6 samples.

Results

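Amino acid transporters were examined in SCC25 cells, a human line grown from a carcinoma of the squamous epithelium of the tongue, in which LIS1 had been lowered. The 10 transporters were chosen by gene symbol, and all 10 were found once each among the 26524 genes of the count table and passed the filter on low counts. Polyadenylated RNA was sequenced from 3 shLIS1 libraries, from cells given a short hairpin against LIS1, and from 3 control libraries. LIS1 is the protein encoded by PAFAH1B1 and a regulator of the dynein motor. The labels give both groups the same cell line and tissue and name no drug or time. The sample titles name no batch, so whether the groups were prepared together is not known. Whether the controls had a hairpin of their own, whether the shLIS1 samples share 1 hairpin and whether samples are separate cultures is not stated, so p-values measure the spread between these samples, which may be technical. The series is titled for serine metabolism and perineural invasion under LIS1, and the comparison asks which transcripts differ when LIS1 is lowered.

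Amino acids cross the plasma membrane on carriers that differ in what they carry and in what drives them. The ASC exchangers SLC1A4 and SLC1A5 swap small neutral amino acids such as serine, alanine and, for SLC1A5, glutamine. The system A carriers SLC38A1 and SLC38A2 concentrate small neutral amino acids in the cell with sodium. SLC7A5, SLC7A6 and SLC7A11 are light chains that reach the membrane as disulfide-linked partners of the heavy chain SLC3A2: SLC7A5 brings in large neutral amino acids such as leucine, SLC7A6 exchanges cationic for neutral amino acids, and SLC7A11 brings in cystine in exchange for glutamate. SLC7A1 carries arginine and lysine without a partner, and SLC38A10 is a less studied member of the SLC38 family. Several of these genes are known targets of ATF4, which acts when amino acids run short, and SLC7A11 is a known target of NRF2, which is encoded by NFE2L2.

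Promoter windows from RefSeq (GRCh38.p14, from 250 bases before to 50 after a transcript start) were found for 9 of the 10 genes (all but SLC7A11), with 15 start sites in all. Windows are shown for SLC7A5 and SLC3A2, the partners with the most abundant transcripts. Those of both system A carriers and of the exchanger with the largest fall are also shown, because all these genes carry the main changes. For SLC1A4, SLC38A1 and SLC3A2, which have 2, 2 and 3 windows, the window shown was picked because it holds a match, and the others hold none of the motifs searched. Capitals mark letters that match TGATGNAA (the C/EBP-ATF response element), TGACNNNGC (a core of the antioxidant response element) or CACGTG (the E-box), searched on both strands. The windows lie at chr16:87869458-87869757 (minus strand) for SLC7A5, chr11:62881449-62881748 (plus) for SLC3A2, chr12:46372724-46373023 (minus) for SLC38A2, chr12:46266467-46266766 (minus) for SLC38A1 and chr2:64989149-64989448 (plus) for SLC1A4.
SLC7A5: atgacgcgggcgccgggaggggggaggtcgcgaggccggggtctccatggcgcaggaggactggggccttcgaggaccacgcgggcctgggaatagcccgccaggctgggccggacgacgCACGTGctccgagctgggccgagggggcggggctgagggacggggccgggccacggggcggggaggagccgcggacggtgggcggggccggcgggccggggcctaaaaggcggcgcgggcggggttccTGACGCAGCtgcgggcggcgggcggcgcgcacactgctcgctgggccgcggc
SLC3A2: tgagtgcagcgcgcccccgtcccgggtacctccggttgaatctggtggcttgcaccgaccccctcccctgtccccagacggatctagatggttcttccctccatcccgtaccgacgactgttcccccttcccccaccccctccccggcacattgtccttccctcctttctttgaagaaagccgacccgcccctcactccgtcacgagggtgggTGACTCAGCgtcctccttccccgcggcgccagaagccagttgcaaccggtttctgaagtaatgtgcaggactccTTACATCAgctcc
SLC38A2: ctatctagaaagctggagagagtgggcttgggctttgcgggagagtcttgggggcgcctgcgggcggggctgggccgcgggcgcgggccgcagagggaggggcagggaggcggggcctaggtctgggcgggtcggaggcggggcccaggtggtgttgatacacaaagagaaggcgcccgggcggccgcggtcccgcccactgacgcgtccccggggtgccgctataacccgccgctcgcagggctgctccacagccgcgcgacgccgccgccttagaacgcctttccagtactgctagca
SLC38A1: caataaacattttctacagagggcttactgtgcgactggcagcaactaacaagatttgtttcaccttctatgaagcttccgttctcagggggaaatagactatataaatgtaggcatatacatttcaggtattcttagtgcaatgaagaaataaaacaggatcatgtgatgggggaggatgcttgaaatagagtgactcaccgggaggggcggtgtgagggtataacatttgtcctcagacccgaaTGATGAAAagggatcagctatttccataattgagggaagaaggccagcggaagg
SLC1A4: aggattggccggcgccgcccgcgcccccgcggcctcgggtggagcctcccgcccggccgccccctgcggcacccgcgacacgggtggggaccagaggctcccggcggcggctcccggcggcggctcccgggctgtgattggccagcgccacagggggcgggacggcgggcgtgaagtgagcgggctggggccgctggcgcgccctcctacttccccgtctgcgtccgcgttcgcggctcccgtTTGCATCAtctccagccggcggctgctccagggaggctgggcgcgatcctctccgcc
The SLC3A2 window holds TGACTCAGC beginning 37 bases before the start and TTACATCA, a match on the other strand, at base 38 after it. The SLC1A4 and SLC38A1 windows shown each hold a match to TGATGNAA, as TTGCATCA 7 bases and TGATGAAA 4 bases before the start. The SLC7A5 window holds the E-box, whose letters read the same on both strands, 130 bases before the start and TGACGCAGC beginning 2 bases before it, and the SLC38A2 window holds none of the 3 motifs. TGATGNAA was present in 5 of the 15 windows of these genes and in 3.62% of 35116 RefSeq windows of the same length. TGACNNNGC was present in 5 windows and in 13.3% of all, and CACGTG in 2 windows and in 7.26% of all. Several windows of 1 gene are start sites of the same gene, and a match in letters is not a measured binding site. Bases outside the windows were not searched. The windows with TGATGNAA belong to genes that were higher (SLC38A1), lower (SLC1A4, SLC1A5, SLC3A2) and not called (SLC7A1) in the comparison that follows.

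Total counts ranged from 17674881 to 22790599 in the shLIS1 libraries and from 15661916 to 20549728 in the control libraries. Levels are given in CPM, read counts scaled to a common library size with TMM, and calls rest on edgeR's quasi-likelihood test with a Benjamini-Hochberg adjusted p below 0.05 over all genes tested. PAFAH1B1 stood at 111, 109 and 113 CPM in shLIS1 libraries 1 to 3, against 157, 165 and 154 CPM in control libraries 1 to 3, so 69.8% of the control level was left. Its log2 fold change was -0.52, and -0.81 once the trend over transcript length and GC content was taken out. Control library 1 stood apart on the second principal component (27.1, against -16.4 and -14.1 for control libraries 2 and 3), and values without it are given where they change the call of a transporter. All 10 squamous epithelial markers were tested, with a summed level of 12181 to 13234 CPM in shLIS1 and 13375 to 13651 CPM in control libraries. Markers of other cell types were low. The 8 fibroblast markers summed to 13.3 to 15.9 CPM in shLIS1 and 17.1 to 21.9 CPM in control libraries, 4 were tested, COL1A1 (8.31 to 14.9 CPM) and LUM (2.75 to 4.55 CPM) made up most, and COL3A1 did not exceed 0.196 CPM. The 5 leukocyte markers with a row in the table, of 7 listed, summed to 10.7 to 11.9 CPM in shLIS1 and 15.9 to 17.1 CPM in control libraries, of which CD14 made up most at 7.52 to 14.8 CPM, while CD3E, CD68 and LYZ reached at most 0.226, 0.13 and 0.0641 CPM. The 4 endothelial markers with a row, of 5 listed, summed to 7.15 to 8.82 CPM in shLIS1 and 12.8 to 17.2 CPM in control libraries, mostly from CDH5, while PECAM1 reached at most 0.453 CPM. The 2 Schwann or nerve cell markers with a row, of 5 listed, summed to 0.113 to 0.325 CPM in shLIS1 and 0.249 to 0.77 CPM in control libraries. The part of these markers in the results was not tested. In RNA from a whole culture, fewer cells of a kind and less RNA per cell cannot be told apart.

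The transporters moved in both directions. With shLIS1, 4 of the 10 were higher (SLC38A1, SLC38A2, SLC7A6 and SLC7A11), 4 were lower (SLC1A4, SLC1A5, SLC7A5 and SLC3A2), and SLC7A1 and SLC38A10 were not called. Over all 14964 genes tested, 48.4% were called, 23.5% higher and 24.9% lower, so a call was common, and the transporters were listed with earlier results of these data known. The median log2 fold change of the 10 was -0.01, the same as over all genes. The groups did not overlap for the 8 called transporters, and they did not overlap for 56.1% of all genes.

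**Figure D1:**
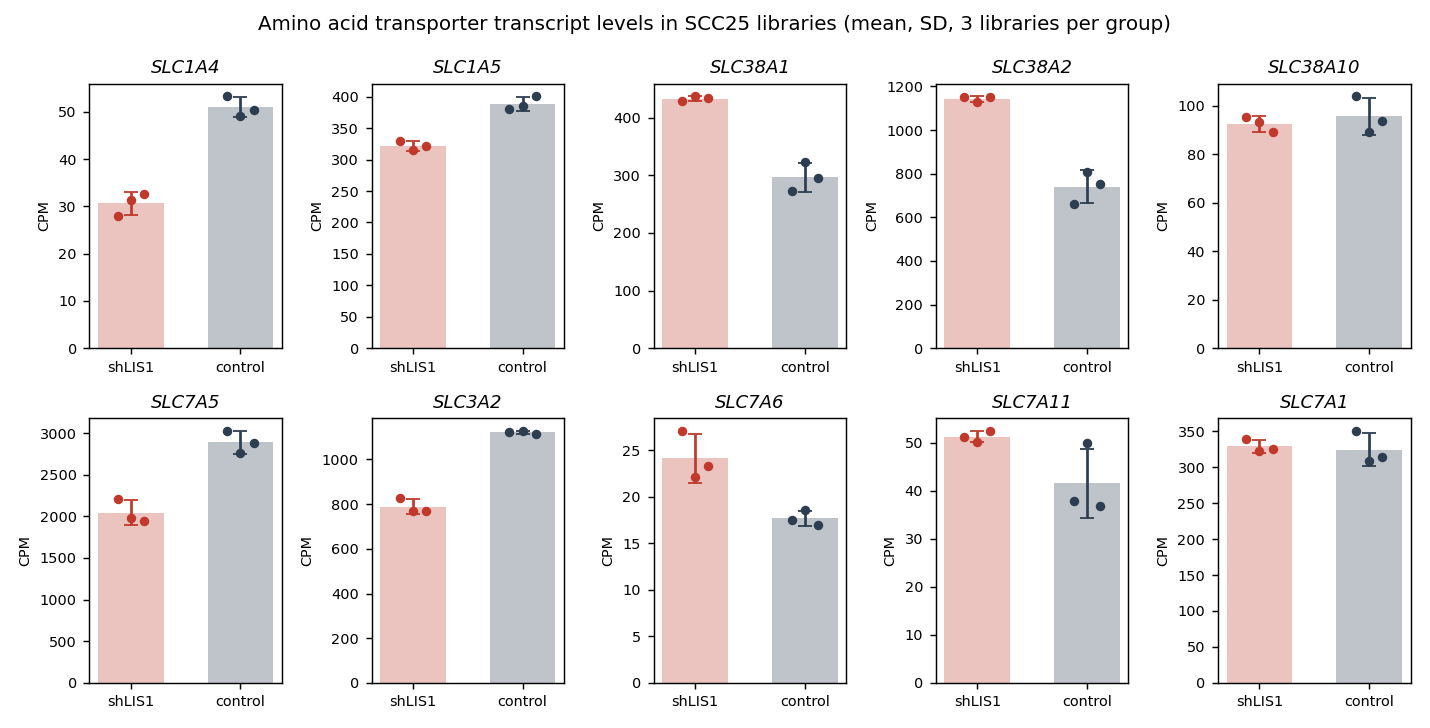
Transcript level (CPM, linear axes from 0) of each transporter in 3 shLIS1 and 3 control libraries. Points are libraries, bars the mean and error bars the SD. The shLIS1 libraries lie above every control library for SLC38A1, SLC38A2, SLC7A6 and SLC7A11, below for SLC1A4, SLC1A5, SLC7A5 and SLC3A2, and among them for SLC7A1 and SLC38A10.

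The ASC exchangers both fell, SLC1A4 more than SLC1A5. SLC1A4 (ENSG00000115902, chromosome 2, 64988477 to 65023865, plus strand, build hg38) had 28, 31.3 and 32.7 CPM in shLIS1 libraries 1 to 3, against 53.3, 49.2 and 50.4 CPM in control libraries 1 to 3. The highest shLIS1 library was well under the lowest control library. On the log2 scale it fell by 0.73 (SE 0.08; adjusted p = 1.2e-07 in edgeR), which left 60.2% of the control level, and it was the largest change in size among the 10. SLC1A5 (ENSG00000105281, chromosome 19, 46774883 to 46788594, minus strand) had 329.9, 315 and 321 CPM in shLIS1 libraries, against 380.2, 385 and 401 CPM in control libraries. The groups were apart by less, with a change of -0.27 on the log2 scale (SE 0.05; adjusted p = 0.00017 in edgeR). An offset was also used that removes the trend of fold changes over transcript length and GC content. It was fitted to each library's deviations from the mean of all libraries. Any group difference that follows length or GC content is thus removed with it, whether technical or biological. With the offset SLC1A4 stayed at -0.70 and SLC1A5 moved to -0.02 (edgeR adjusted p = 0.738), which ended the call of SLC1A5. Within a library the per-length ratio of SLC1A4 to SLC1A5 was 0.0536, 0.0629 and 0.0643 with shLIS1 and 0.0886, 0.0806 and 0.0794 in controls. It was lower in every shLIS1 library, with a difference of -0.46 on the log2 scale (SE 0.096, exact two-sided permutation p = 0.1, n = 3 each). With 3 against 3 libraries no smaller p is possible, and after adjustment over the 6 pairs compared it was 0.12.

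The system A carriers rose side by side. SLC38A2 (ENSG00000134294, chromosome 12, 46358188 to 46372773, minus strand) had 1149.7, 1127 and 1149.8 CPM in shLIS1 libraries, against 661, 810 and 752 CPM in control libraries. The shLIS1 libraries lay within a narrow band above all controls, which varied more among themselves. The change was 0.62 on the log2 scale (SE 0.06; adjusted p = 1e-07 in edgeR), the largest rise of the 10. SLC38A1 (ENSG00000111371, chromosome 12, 46183063 to 46270017, minus strand) had 429, 437 and 434 CPM in shLIS1 libraries, against 272, 323 and 295 CPM in control libraries. It too was higher in 3 of 3 shLIS1 libraries, with a change of 0.55 on the log2 scale (SE 0.06; adjusted p = 2e-07 in edgeR). The 2 genes lie on the same strand, 88170 bases apart. Their per-length ratio, SLC38A1 over SLC38A2, was 0.226, 0.235 and 0.229 with shLIS1 and 0.25, 0.242 and 0.238 in controls, a log2 difference of -0.08 (SE 0.027, exact permutation p = 0.1, adjusted over 6 pairs 0.12). Both calls held with the length and GC offset, where the log2 fold changes were 0.26 for SLC38A2 and 0.19 for SLC38A1, 41.8% and 34.3% of the values without it.

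The third SLC38 gene was not called. SLC38A10 (ENSG00000157637, chromosome 17, 81244811 to 81295547, minus strand) had 95.4, 93.4 and 89.1 CPM in shLIS1 libraries, against 104, 89.1 and 93.8 CPM in control libraries, and the groups overlapped. It differed by -0.04 on the log2 scale (SE 0.06; adjusted p = 0.591 in edgeR). With the length and GC offset it was called higher, at 0.20 (edgeR adjusted p = 0.00182), so its direction depended on that setting.

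The partners with the most abundant transcripts, the light chain SLC7A5 and the heavy chain SLC3A2, fell together. SLC7A5 (ENSG00000103257, chromosome 16, 87830023 to 87869507, minus strand) had 2212, 1981 and 1938 CPM in shLIS1 libraries, against 3025, 2756 and 2880 CPM in control libraries. All shLIS1 libraries were below all controls, and the gene fell by 0.50 on the log2 scale (SE 0.05; adjusted p = 1.5e-07 in edgeR). SLC3A2 (ENSG00000168003, chromosome 11, 62856004 to 62888880, plus strand) had 828, 769 and 769 CPM in shLIS1 libraries, against 1124, 1126 and 1115 CPM in control libraries. Its control libraries were nearly alike, and the gene fell by 0.51 on the log2 scale (SE 0.05; adjusted p = 3.1e-08 in edgeR). The levels left were 70.8% of control for SLC7A5 and 70.3% for SLC3A2. Their per-length ratio was 1.31, 1.26 and 1.23 with shLIS1 and 1.32, 1.20 and 1.26 in controls, so the groups overlapped and differed by 0.01 on the log2 scale (SE 0.046, exact permutation p = 1, n = 3 each). With the offset both remained lower, at -0.29 for SLC7A5 and -0.28 for SLC3A2. SLC7A5 is known to have near-identical pseudogene copies, so reads may be shared with them.

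The light chains SLC7A6 and SLC7A11 were higher while SLC3A2 was lower, although for SLC7A11 the direction turned with the offset. SLC7A6 (ENSG00000103064, chromosome 16, 68264516 to 68301823, plus strand) had 27.1, 22.1 and 23.3 CPM in shLIS1 libraries, against 17.5, 18.6 and 17 CPM in control libraries. Every shLIS1 library was higher, with a change of 0.45 on the log2 scale (SE 0.09; adjusted p = 0.00033 in edgeR), and 0.32 with the offset (edgeR adjusted p = 0.00387). SLC7A6 overlaps SLC7A6OS on the other strand over 17321 bases. Whether counting used strand is not stated, so the reads of this pair may be mixed. SLC7A6OS itself averaged 9.02 CPM with shLIS1 and 9.68 CPM in controls (log2 fold change -0.09, edgeR adjusted p = 0.578).

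SLC7A11 (ENSG00000151012, chromosome 4, 138164097 to 138242349, minus strand), the cystine carrier, had 51.2, 50.2 and 52.5 CPM in shLIS1 libraries, against 38, 49.9 and 36.9 CPM in control libraries. Control library 2 stood almost at the shLIS1 level, and the other controls were lower. The change was 0.30 on the log2 scale (SE 0.09; adjusted p = 0.0156 in edgeR). The call was lost without control library 1 (0.23, edgeR adjusted p = 0.0636), control library 3 (0.22, 0.0937), shLIS1 library 1 (0.30, 0.0521) or shLIS1 library 3 (0.28, 0.0597). Without control library 2 the change was 0.46 (edgeR adjusted p = 3.3e-05). With the length and GC offset the direction turned, to -0.24 (edgeR adjusted p = 0.0123).

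Against the heavy chain, both minor light chains were higher in every shLIS1 library. The per-length ratio of SLC7A6 to SLC3A2 was 0.0115, 0.0101 and 0.0107 with shLIS1 and 0.00549, 0.00582 and 0.00538 in controls, a log2 difference of 0.95 (SE 0.064). The ratio of SLC7A11 to SLC3A2 was 0.0142, 0.015 and 0.0157 with shLIS1 and 0.00778, 0.0102 and 0.00763 in controls, a log2 difference of 0.82 (SE 0.14). The ratio of SLC7A5 to SLC7A6 was 114, 125 and 116 with shLIS1 and 240.2, 206 and 235 in controls, a log2 difference of -0.94 (SE 0.081). Each of these had an exact two-sided permutation p of 0.1 with n = 3 each, and 0.12 adjusted over the 6 pairs. A ratio within a library does not depend on how libraries are scaled. It does carry the length and GC trend: with the offset the log2 fold changes were -0.24 for SLC7A11 and -0.28 for SLC3A2, and 0.32 for SLC7A6. In that fit SLC7A11 thus fell about as much as SLC3A2, and only SLC7A6 still rose while SLC3A2 fell.

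**Figure D2:**
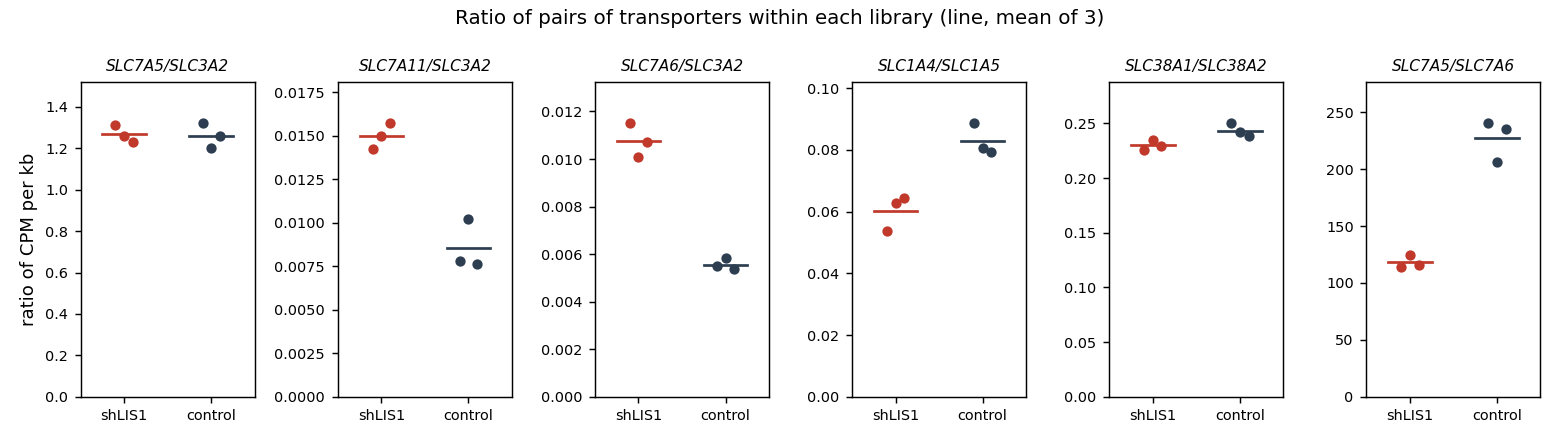
Ratio of per-length levels (CPM per kb over CPM per kb, linear axes from 0) of 6 pairs of transporters in each shLIS1 and control library. Points are libraries and lines the mean of 3. The SLC7A5/SLC3A2 ratio overlaps between the groups, and the other 5 pairs do not overlap.

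SLC7A1, the carrier of cationic amino acids, was not called. SLC7A1 (ENSG00000139514, chromosome 13, 29509414 to 29595688, minus strand) had 339, 323 and 325 CPM in shLIS1 libraries, against 350.3, 309 and 314 CPM in control libraries. The groups overlapped, with a difference of 0.02 on the log2 scale (SE 0.06; adjusted p = 0.8 in edgeR). It was 0.03 with the length and GC offset (edgeR adjusted p = 0.582) and -0.02 with upper quartile scaling.

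**Figure D3:**
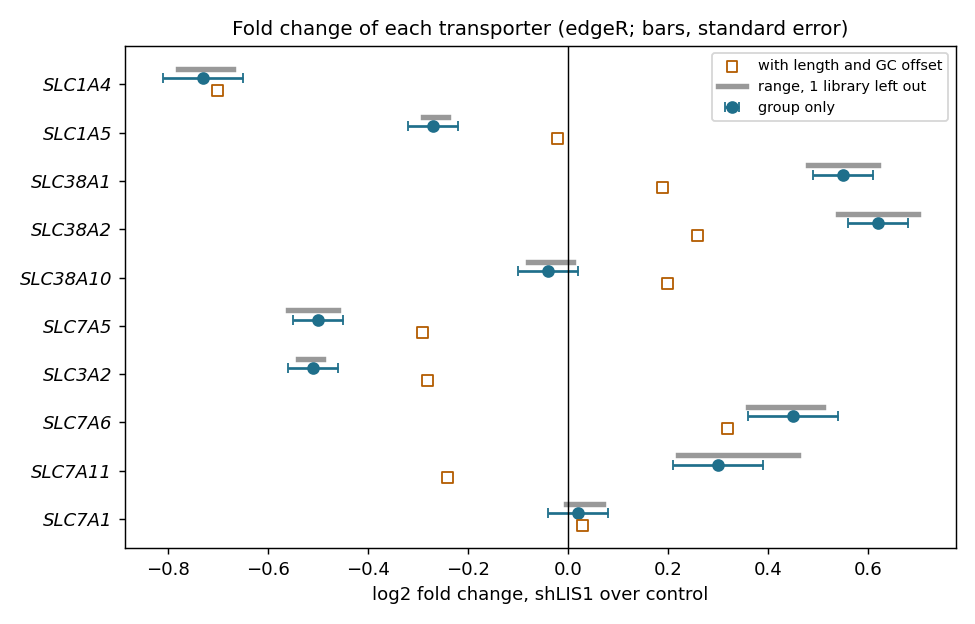
Log2 fold change (shLIS1 over control) of each transporter in edgeR, with the standard error, the range over fits with 1 library left out (grey) and the value with the length and GC offset (open squares). SLC1A4, SLC7A5, SLC3A2, SLC7A6, SLC38A1 and SLC38A2 keep their side of 0, SLC1A5 moves to -0.02, and SLC7A11 and SLC38A10 change side with the offset.

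Per length, SLC7A5 and SLC3A2 made up most of the transporter transcripts in both groups. Levels per kb of the longest GENCODE 29 transcript ran in the order SLC7A5 (451 ± 32.4 CPM per kb with shLIS1 and 636 ± 29.6 in controls), SLC3A2 (355 ± 15.4 and 505 ± 2.56), SLC38A2 (234 ± 2.66 and 152 ± 15.4) and SLC1A5 (112 ± 2.64 and 135 ± 3.69; SD, n = 3 each). SLC38A2 and SLC1A5 overlapped in the control libraries, and they were apart in the shLIS1 libraries. SLC38A1 stood at 53.7 ± 0.483 CPM per kb with shLIS1 and 36.8 ± 3.13 in controls, above SLC7A1 (44.8 ± 1.18) with shLIS1 and below it (44.2 ± 3.06) in controls. The lowest were SLC38A10 (21.5 ± 0.746 CPM per kb with shLIS1 and 22.2 ± 1.72 in controls), SLC1A4 (6.72 ± 0.53 and 11.2 ± 0.468), SLC7A11 (5.32 ± 0.12 and 4.31 ± 0.748) and SLC7A6 (3.83 ± 0.412 and 2.81 ± 0.126). No other neighbours in either order overlapped between libraries.

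The make-up of the 10 summed per-length levels differed between the groups. Their sum was 1347, 1258 and 1255 CPM per kb in shLIS1 libraries, against 1564, 1535 and 1548 in control libraries. SLC7A5 and SLC3A2 together made up 63.9%, 62.2% and 61.6% of it with shLIS1 and 75%, 72.6% and 73.4% in controls. SLC38A1 and SLC38A2 made up 21.4%, 22.6% and 23% with shLIS1 and 10.8%, 13.4% and 12.3% in controls. The ASC exchangers held 9.21% ± 0.249 with shLIS1 and 9.43% ± 0.254 in controls (SD, n = 3 each), a difference within the spread. These shares follow from the changes already given and add no test of their own. With the length of all exons joined in place of the longest transcript, SLC7A5 and SLC3A2 made up 60.5% ± 1.3 with shLIS1 and 71.6% ± 1.41 in controls. In that measure the order changed in 3 places: SLC38A2 stood above SLC3A2 with shLIS1 (173 and 152 CPM per kb), SLC7A11 above SLC1A4 with shLIS1 (5.32 and 4.42), and SLC1A5 above SLC38A2 in controls (117 and 112). With that length the SLC7A5/SLC3A2 ratio was 2.83 ± 0.0828 with shLIS1 and 2.81 ± 0.132 in controls, so the size of the ratio depends on the length used.

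**Figure D4:**
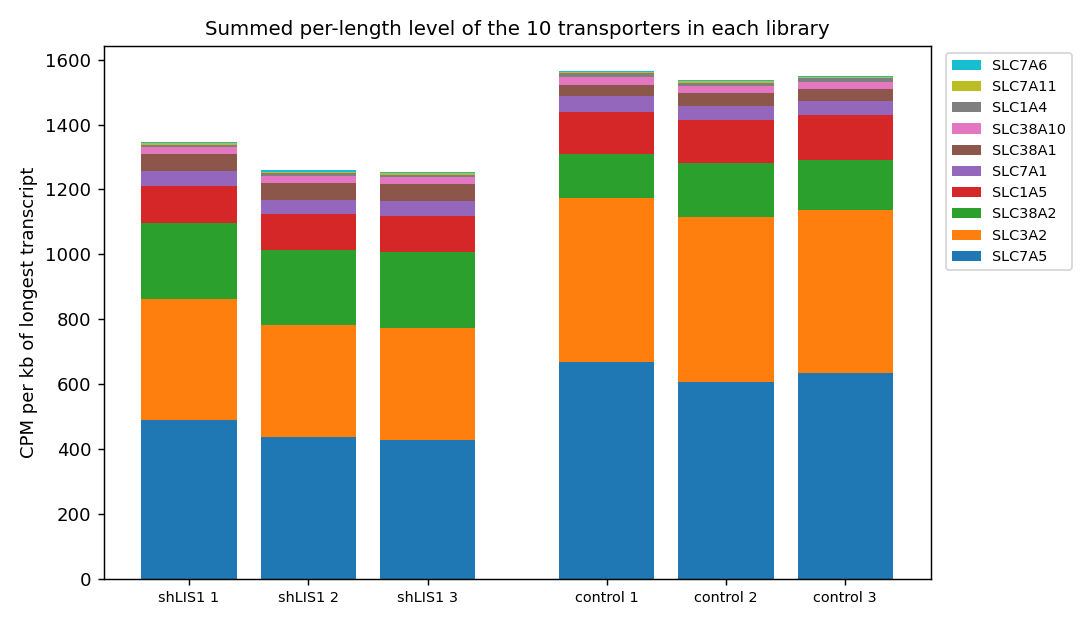
Per-length levels (CPM per kb of the longest transcript) of the 10 transporters, stacked in each of 3 shLIS1 and 3 control libraries. SLC7A5 and SLC3A2 form the larger part of every bar, and the SLC38A2 part is taller in the shLIS1 libraries.

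The called transporters also differed in base composition. The 4 higher ones had a GC content of 35.4% to 47%, the 4 lower ones of 52.6% to 61.3%, and the 2 not called of 52.7% (SLC7A1) and 64.3% (SLC38A10). SLC38A10 thus had the highest GC content of the 10 and stood at -0.04. Split by GC content into quintiles, all genes had a median change of 0.277 (log2) in the lowest quintile and -0.282 in the highest. SLC7A11, with 35.4% GC, stood at 0.30 in a quintile with a median of 0.277, and SLC1A5, with 61.3%, at -0.27 in a quintile with a median of -0.282. SLC38A2 (38.1%) exceeded its quintile's median of 0.277, and SLC1A4 (52.6%) and SLC3A2 (57.4%) lay below theirs of -0.148. Split by transcript length instead, the median change of all genes was -0.191 in the shortest quintile and 0.185 in the longest. The longest quintile held SLC38A1, SLC7A11, SLC7A6 and SLC7A1. With the offset 6 of the 8 calls kept their direction, 3 higher and 3 lower. The counts stayed at 4 higher and 4 lower because SLC38A10 was called higher and SLC7A11 lower. Over all genes 41.8% were called with the offset.

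**Figure D5:**
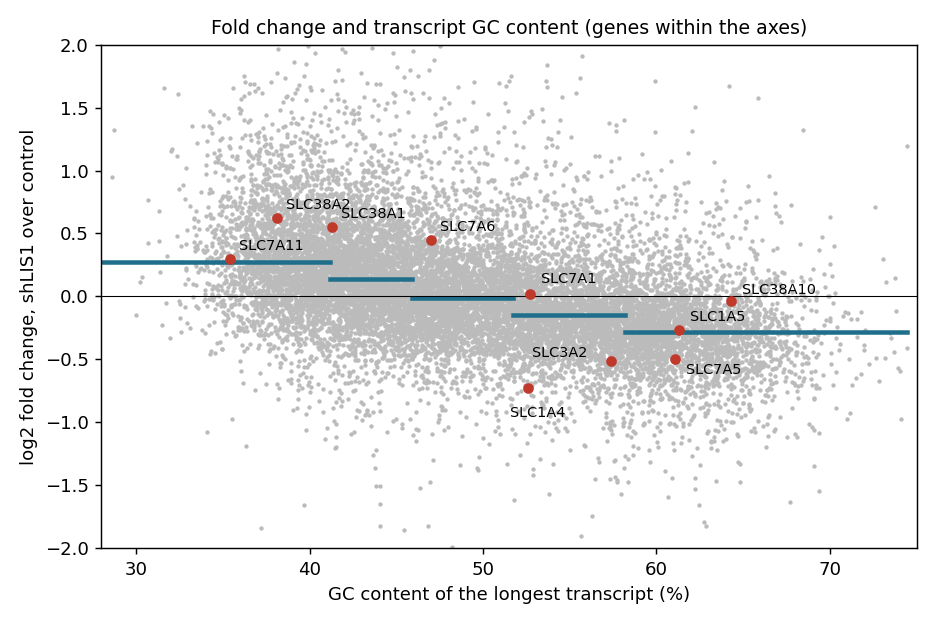
Log2 fold change (shLIS1 over control) against the GC content of the longest transcript for the genes tested that fall within the axes (grey), with the 10 transporters in red and the median of each GC quintile as a blue line. SLC7A11 and SLC1A5 lie close to the median of their quintile, and SLC1A4, SLC3A2, SLC38A1, SLC38A2 and SLC7A6 lie farther from it. So do SLC7A5, below its median, and the uncalled SLC7A1 and SLC38A10, above theirs.

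Of 34 other amino acid transporters of the plasma membrane 17 were tested, and 4 rose and 4 fell, a share near the 48.4% called over all genes, with a median log2 fold change of -0.06 against -0.01 over all genes. SLC6A14, a broad carrier of neutral and cationic amino acids, averaged 4.66 ± 0.401 CPM with shLIS1 and 1.9 ± 0.117 CPM in controls (log2 fold change 1.29, edgeR adjusted p = 7.7e-06). SLC7A8, the other large neutral light chain of SLC3A2, averaged 2.38 ± 0.173 CPM with shLIS1 and 6.4 ± 0.566 CPM in controls (-1.42, adjusted p = 4.6e-07). SLC6A9, a glycine carrier, averaged 27.6 ± 1.64 CPM with shLIS1 and 47.8 ± 1.48 CPM in controls (-0.79, adjusted p = 3e-08; SD, n = 3 each). SLC6A15, a carrier of branched-chain amino acids and proline, had a log2 fold change of 0.41, which was 0.05 with the offset (edgeR adjusted p = 0.571). With the offset 2 rose and 8 fell on this list, of which 2 and 4 were also called without it. Over all 14491 genes in the offset fit, 2570 were called higher and 3485 lower. Without control library 1 the list had 4 higher and 6 lower, beside 47.9% called over all genes.

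Within the cell, transporters of lysosomes and other inner membranes rose in 3 of 9 tested genes and fell in 0 (edgeR, DESeq2 and limma-voom each; 0 fell at an unadjusted p below 0.05 in edgeR). Over all genes 23.5% were called higher and 24.9% lower, and 48.4% in either direction. The 3 were SLC15A3, a carrier of peptides and histidine (log2 fold change 0.24, and 0.59 with the offset), and SLC36A4 (0.28) and SLC36A1 (0.26), of a family of small amino acid carriers. SLC36A1 falls outside the rule for named genes and was chosen after its values were seen. With the offset 6 rose, of which 2 were also called higher without it and 4 were not. Over all 14491 genes in that fit, 2570 were called higher and 3485 lower. In the same fit SLC36A4 turned to -0.19 (edgeR adjusted p = 0.0402), a call that ended with the replicate block added (edgeR adjusted p = 0.0609). The carriers of the inner mitochondrial membrane fell in 5 of 13 tested genes and rose in 0 (edgeR, DESeq2 and limma-voom each; 0 rose at an unadjusted p below 0.05 in edgeR), beside 24.9% of all genes called lower and 23.5% higher. SLC25A39, which brings glutathione into mitochondria, averaged 148 ± 6.27 CPM with shLIS1 and 196 ± 4.18 CPM in controls (SD, n = 3 each; log2 fold change -0.41, edgeR adjusted p = 1.8e-06), and -0.05 with the offset (adjusted p = 0.384). SLC25A29, a carrier of cationic amino acids, had -0.46, and -0.30 with the offset. SFXN1, the mitochondrial serine carrier, averaged 146 ± 9.12 CPM with shLIS1 and 152 ± 1.94 CPM in controls and was not called (edgeR adjusted p = 0.404). With the offset SFXN1 was called lower, at -0.23 (edgeR adjusted p = 0.00042). With the offset 6 mitochondrial carriers were called lower, of which 3 were also called without it (SLC25A12, SLC25A29 and SFXN3) and 3 were not (SFXN1, SLC25A13 and SLC25A40). The carriers named here other than SLC25A39 and SLC25A29 were chosen after their values were seen.

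The mTORC1 kinase complex reads amino acid supply at the lysosome. Of 32 tested genes of this sensing system 7 rose and 8 fell, a share near the 48.4% called over all genes, with a median log2 fold change of -0.04. With the offset 6 rose and 7 fell, beside 41.8% called over all genes. Of these, 4 of the higher and 5 of the lower genes were also called in the same direction without it. SEH1L, chosen after its values were seen, turned from 0.15 (edgeR adjusted p = 0.0329) to -0.13 (edgeR adjusted p = 0.0177). Without control library 1, 6 rose and 7 fell. FNIP1, a partner of folliculin, had 0.62 and MIOS, a subunit of GATOR2, had 0.40, while MLST8, a subunit of the kinase complex, had -0.58 and LAMTOR5, a subunit of the Ragulator anchor, -0.41. With the offset FNIP1 was at 0.22, MIOS at 0.21, MLST8 at -0.21 and LAMTOR5 at -0.36. Upper quartile scaling gave 6 higher and 12 lower on this list, beside 3146 higher and 4214 lower of 14964 genes tested. Among 14 regulators known to set transporter transcript levels 6 rose and 6 fell, beside 23.5% and 24.9% of all genes, and without control library 1 it was 5 and 6. BACH1, a repressor of NRF2 target genes, averaged 87.2 ± 6.91 CPM with shLIS1 and 46.8 ± 6.05 CPM in controls (SD, n = 3 each; log2 fold change 0.89, edgeR adjusted p = 2e-07; 0.51 with the offset). MYC, a transcription factor that drives growth genes, had 0.43, and CEBPB, a partner of ATF4, had -0.36, which turned to 0.01 with the offset (edgeR adjusted p = 0.866). With the offset 4 regulators rose and 2 fell, a share near the 41.8% called over all genes. NFE2L2 (0.42) and ATF4 (-0.24) also passed the test and were chosen after their values were seen. ATF4 moved to -0.01 with the offset (edgeR adjusted p = 0.873), and NFE2L2 to 0.35.

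The gene with the nearest profile to each transporter was sought among 10642 other genes averaging 5 CPM or more, by the root mean square difference of log2(CPM + 1) over the 6 libraries, each gene centred on its own mean. The nearest were GPX4 for SLC1A4 (difference 0.029), CXXC1 for SLC1A5 (0.016), RBM39 for SLC38A1 (0.017), PLK4 for SLC38A2 (0.022) and SHKBP1 for SLC7A5 (0.021). They were RAB1B for SLC3A2 (0.02), RIOK2 for SLC7A6 (0.045), SDR16C5 for SLC7A11 (0.047), RNF103 for SLC7A1 (0.016) and PRRC2A for SLC38A10 (0.016). No transporter was the nearest to another, and SLC7A6 and SLC7A11 had the most distant match. A near profile here means a like change between the groups and like deviations of single libraries, in log2 units.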

How the data were processed

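Polyadenylated RNA of SCC25 cells was sequenced from 3 shLIS1 and 3 control libraries, with dUTP strand marking per the labels' protocols. The authors deposited a table of whole-number counts for each gene, without normalization, with gene coordinates. Build hg38 is named in the submitters' processing notes. For the aligner, counter, annotation release and strand setting, nothing is given in the sources used here.

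The edgeR 4.0.16 quasi-likelihood test (R 4.3.3, robust=TRUE) was run on group after filterByExpr (count 10, total 15) and TMM, with Benjamini-Hochberg adjustment over 14964 genes. SE is the absolute log2 fold change over the root of F. As alternatives served scaling by RLE or by upper quartile, fits without a filter or with 1 CPM in 3 libraries, DESeq2 1.42.0, limma-voom (limma 3.58.1), no robust estimation, a replicate block, each library left out, and an offset from a smooth (mgcv 1.9.3, basis size 6 per axis) over log2 length and GC content of the longest GENCODE 29 transcript, preferring coding ones, found for 96.8% of tested genes. Of the 26524 table identifiers, 24379 were in GENCODE 29, which served for lengths and GC content and not for coordinates. Fits were tested on simulated data.

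Members, lists and alternatives were chosen with earlier results of these data known. Named genes were the 10 transporters, PAFAH1B1, the 2 higher and 2 lower genes of smallest p per list, and the gene nearest each transporter; some results are not reported here. Same-numbered libraries did not deviate together (correlations of -0.0381, 0.0315 and -0.0373), and no within-group pair agreed within counting noise (chi-square per gene 2.64 to 10.9, against 40.3 to 54.1 across groups).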

Additional observations from a re-analysis of the deposited data

How the results depend on the processing

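Of 160 values of the 10 transporters over 16 alternatives, 146 kept their direction and side of the threshold, 6 lost the call and 8 changed sign. Calls of SLC1A4, SLC38A1, SLC38A2, SLC7A5, SLC3A2 and SLC7A6 held under all 16. For SLC1A5 the call was lost with the length and GC offset, with or without the block. The log2 fold change of SLC7A11 was -0.24 with the offset and -0.23 with the offset and the replicate block, and 0.22 to 0.46 with 1 library left out. SLC7A1 was -0.02 with upper quartile scaling and -0.0042 to 0.07 with 1 library left out. SLC38A10 was 0.20 with the offset, with and without the block, and -0.08 to 0.01 with 1 library left out. Among other named genes, with the offset and with offset and block alike, CEBPB was 0.01, PRRC2A 0.14, RNF103 -0.01 and SLC36A4 -0.19. RNF103 was also -0.02 with upper quartile scaling, and with 1 library left out it was -0.02 to 0.07 and PRRC2A was -0.09 to 0.02. The cause was not tested.

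With the replicate block, used as a number only, 3484 genes were higher and 3682 lower, against 3518 and 3731 without it, and no call of a transporter changed. Upper quartile scaling gave 3146 higher and 4214 lower, and with the offset 2570 and 3485. Over fits with 1 library left out, 3 to 4 transporters were higher and 4 lower. SLC7A6, SLC7A11 and SLC1A4 rest on 273 to 1211 counts per library. The SLC7A5/SLC3A2 log2 ratio difference was -0.03 to 0.04 with 1 library left out.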

Other observations

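Among opposite-strand genes that overlap the transporters, SLC7A6OS had a total count that was 44% of that of SLC7A6. LINC02245, which spans SLC1A4 on the other strand, had a separate count equal to 2.46% of the SLC1A4 count and averaged 0.66 CPM with shLIS1 and 1.33 CPM in controls (log2 fold change -0.96, edgeR adjusted p = 0.0658). The SLC7A11-AS1 count equalled 0.487% of the SLC7A11 count, and the SLC38A2-AS1 count 0.0221% of the SLC38A2 count, each counted in a row of its own. Whether counting used strand is unknown for these pairs.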
